A study of Mus musculus with 4 samples.

Results

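The S100 genes encode small calcium-binding proteins. The group described here is a list of 9 of them, *S100a1*, *S100a3*, *S100a4*, *S100a6*, *S100a10*, *S100a11*, *S100a13*, *S100a16* and *S100b*, taken by gene name from a table of 56748 genes, and all 9 were found. The mouse lenses were from *Fsp1-cre;Pdgfrb*+/*D849V* animals (mutant) and from controls labelled *Fsp1-cre;Pdgfrb*+/+, 10 to 12 days old, with 2 poly(A) RNA libraries per group. The *D849V* allele encodes a hyperactive PDGFRβ receptor and is knocked into the endogenous *Pdgfrb* locus, where cre is needed to switch it on. The cre is driven by the promoter of *Fsp1*, which is another name of *S100a4* and is active in cells outside the lens too. The mice had been bred onto the FVB/N strain and the line also carried a *Rosa-LSL-tdTomato* reporter. The study describes activity of this reporter in the lens epithelium from an age later than that of these lenses. It adds that the reporter alone does not show that the mutant receptor is expressed. Lenses of several mice were pooled for each library. According to the methods of the study, the control pools held cre-negative mice as well as cre-positive ones, including mice with the *D849V* allele and no cre, and the makeup of each pool is not given in the sources used here. Nothing states whether the 2 libraries of a group came from separate sets of mice, so p-values measure only the spread between these libraries.

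S100 proteins carry a pair of EF-hand loops that bind calcium, and most of them form dimers that open a binding face for partner proteins when calcium rises. Their best known partners are the annexins, which bind phospholipid membranes, and other partners sit in the cytoskeleton or act on growth and survival. In the lens, calcium is held low in the fibre cells, and raised calcium is a known feature of cataract. *S100a4* is widely used as a marker of fibroblasts and of epithelial cells that turn towards a mesenchymal state, and macrophages also express it.

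The 9 genes were chosen by their FPKM and fold changes between mutant and control in these same 4 libraries, since the list was drawn up with those results known. Their differences between the groups are therefore given as a description, without a test. Levels are FPKM, fragments per kilobase of gene length, scaled by a library size that the authors set. Comparisons between genes rest on the length listed for each, from 511 bases for *S100a11* to 2670 for *S100a3* among the 9. Whole reads were recovered from FPKM, between 18561682 and 18878768 per library. The library size behind FPKM was 0.944 (replicate 1) and 1.05 times these reads for the mutant pools and 1.05 (replicate 1) and 0.987 times for the controls, so FPKM of mutant replicate 1 are higher relative to the others than reads per library would give. Fold changes are mutant over control on the scale of log2(FPKM + 0.1), which understates the change of genes with low values, with the standard error (SE) of a limma fit over all genes.

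The 9 genes spanned more than 3 orders of magnitude in FPKM, a span that rests on *S100b*, with at most 6 reads in a library. The other 8 ran from 128 to 0.458 FPKM. *S100a6* and *S100a11* stood highest, with mean FPKM over the 4 libraries of 128 ± 17.6 (SD) and 85.4 ± 14.8. They were followed by *S100a10* at 27.6 ± 4.38 and *S100a3* at 14.1 ± 11.4. Next came *S100a16* at 3.97 ± 0.480, *S100a4* at 3.08 ± 1.39 and *S100a1* at 2.79 ± 0.497. *S100a13* averaged 0.458 ± 0.205 and *S100b* 0.0795 ± 0.0910. The order of the first 3 was the same in all 4 libraries and their ranges did not overlap. In FPKM, *S100a10* was above *S100a3* in each library, although their ranges overlapped. Mutant replicate 1 reached 26.4 FPKM for *S100a3* and mutant replicate 2 only 21.7 for *S100a10*. That order depends on the listed lengths. In reads, *S100a3* was above *S100a10* in both mutant libraries (1255 and 1009 against 697 and 515). It was below in both control libraries (565 and 0 against 653 and 640). The range of *S100a4* overlapped those of *S100a16* and *S100a1*, so that it could not be ordered against either, whereas *S100a16* was above *S100a1* in all 4 libraries without overlap. *S100a6* was higher than 99.1% of the 15997 genes that passed a mean of 0.1 FPKM, *S100a11* than 98.5% and *S100a10* than 96.1%. *S100b* fell below that minimum and was not in the fit, so 8 of the 9 genes have a fold change. Summed over the 9 genes, the level was 330 and 248 FPKM in mutant replicates 1 and 2 and 251 and 233 in control replicates 1 and 2. *S100a6* and *S100a11* together made up between 78.9% and 84.0% of this sum.

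**Figure D1:**
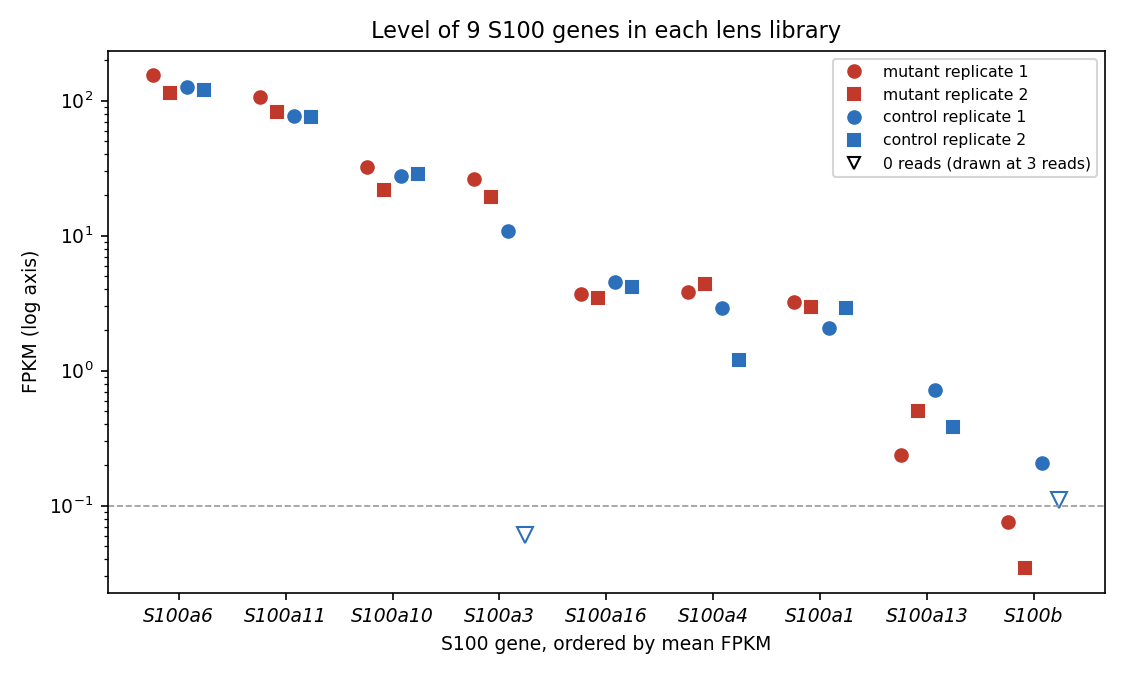
FPKM of the 9 S100 genes on a log axis, one point per library, with mutant libraries in red and control libraries in blue; the dashed line is the minimum mean of 0.1 FPKM, and an open triangle marks a library with 0 reads, drawn at the value of 3 reads. *S100a6* and *S100a11* lie highest in every library, and control replicate 2 has 0 reads for *S100a3* and *S100b*.

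*S100a6* encodes calcyclin, which binds annexins and the ubiquitin ligase component CacyBP and is abundant in proliferating epithelia and fibroblasts. It had 154 and 114 FPKM in mutant replicates 1 and 2 and 125 and 120 in control replicates 1 and 2, from 3029 to 3746 reads. The control libraries lay between the mutant libraries, so the groups overlapped, as they did when scaled to recovered reads (145 and 119 against 131 and 119). The means were 134 ± 28.3 (SD, n = 2) and 123 ± 3.74, with a log2 fold change of 0.11 (SE 0.16). Without mutant replicate 1 the sign turned, to -0.11.

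*S100a11* encodes calgizzarin, a partner of annexin A1 that is also found in the nucleus of keratinocytes. It had 107 and 82.5 FPKM in the mutant libraries and 76.5 and 75.5 in the control libraries. Both mutant libraries were above both control libraries, with mutant replicate 2 closer to the controls than to mutant replicate 1. The means were 94.7 ± 17.4 and 76.0 ± 0.710 (SD, n = 2), a log2 fold change of 0.31 (SE 0.14), which was 0.12 without mutant replicate 1. Of the 31-base words in its transcript, 48.9% also occur in transcripts of other genes, mostly processed pseudogenes. Among those pseudogenes *Gm7665* had 137 and 99 reads in the mutant against 88 and 102 in the control pools, and *Gm12854* had 18 and 14 against 6 and 5. How reads are split between *S100a11* and these copies is uncertain.

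The proportion of the 2 most abundant genes is given as a description. Within a library, the FPKM of *S100a6* was 1.44 and 1.38 times that of *S100a11* in the mutant pools and 1.64 and 1.59 times in the control pools. This ratio does not depend on how libraries are scaled. It averaged 1.41 ± 0.0409 in mutant and 1.62 ± 0.0342 in control lenses (SD, n = 2), and the 2 groups did not overlap. Single genes did not overlap in 36.6% of cases, and no test was made of this ratio.

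The stretches before the transcription starts of these genes differ in base composition and motifs. They are shown because they belong to the most abundant members, as the 250 bases before the start on the + strand of GRCm38 chromosome 3, from RefSeq. Capitals mark the motifs TGANTCA, the site of AP-1 factors, and CCGCCC, a GC box, which reads GGGCGG on the other strand.
S100a6, chr3:90612644-90612893: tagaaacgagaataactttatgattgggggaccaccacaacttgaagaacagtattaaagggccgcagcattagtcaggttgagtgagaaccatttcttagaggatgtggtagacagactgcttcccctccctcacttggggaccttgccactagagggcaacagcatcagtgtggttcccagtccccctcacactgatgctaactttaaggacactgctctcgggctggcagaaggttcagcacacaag
S100a11, chr3:93520246-93520495: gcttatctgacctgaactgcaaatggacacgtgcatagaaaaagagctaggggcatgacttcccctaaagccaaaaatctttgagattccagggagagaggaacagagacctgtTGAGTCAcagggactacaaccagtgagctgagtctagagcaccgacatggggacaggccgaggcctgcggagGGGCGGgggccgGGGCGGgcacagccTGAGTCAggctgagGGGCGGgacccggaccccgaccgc
The *S100a11* stretch held TGAGTCA at 136 and 38 bases before the start, and GGGCGG at 64, 52 and 24 bases before it. The *S100a6* stretch held neither, nor TATAAA. Over all 32851 promoter windows of 300 bases (250 before and 50 after the start, both strands read), 7.81% held TGANTCA and 35.7% held CCGCCC. A match is a description of the letters only.

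*S100a10* encodes a member of the family that has lost calcium binding and sits in a stable complex with annexin A2 at the plasma membrane. It had 32.3 and 21.7 FPKM in the mutant against 27.7 and 28.6 in the control pools. Mutant replicate 1 was the highest of the 4 and mutant replicate 2 the lowest. The means were 27.0 ± 7.46 and 28.2 ± 0.664, a log2 fold change of -0.09 (SE 0.20), and without mutant replicate 2 the sign turned, to 0.19. *Anxa2*, the gene of its partner, had 15.0 and 14.6 FPKM in the mutant against 14.7 and 14.0 in the control pools, with a log2 fold change of 0.04 (SE 0.09, limma adjusted p = 0.927). *S100a10* was therefore above *Anxa2* in every library, by 2.15 and 1.49 times in the mutant against 1.88 and 2.05 times in the control pools. *S100a11* was likewise above *Anxa1*, by 1.84 and 1.44 times in the mutant against 1.49 and 1.44 times in the control pools. Both ratios overlapped between the groups.

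**Figure D2:**
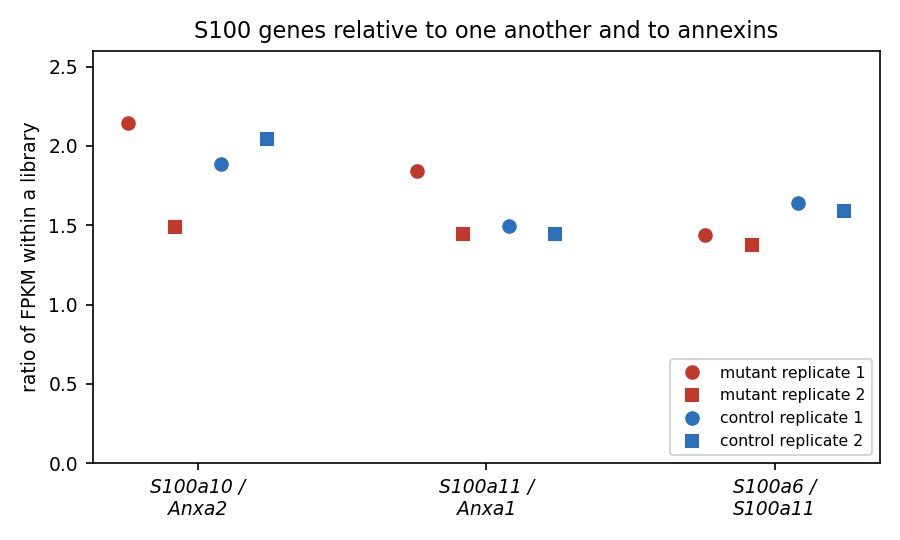
Ratio of FPKM between pairs of genes within each library, one point per library (mutant red, control blue). The ratio of *S100a6* to *S100a11* is lower in both mutant libraries (1.44 and 1.38) than in both control libraries (1.64 and 1.59), whereas the ratios to the annexin genes overlap.

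*S100a3*, a cysteine-rich member, is best known from the cuticle of the hair shaft, and its reads ran from 1255 to 0. It had 1255 and 1009 reads in mutant replicates 1 and 2, 565 reads in control replicate 1 and 0 reads in control replicate 2. In FPKM these were 26.4, 19.3, 10.9 and 0, where 3 reads in control replicate 2 would be 0.0610 FPKM. All 3 libraries with reads stood far above the library without, and both mutant libraries were above control replicate 1. The mean was 22.8 ± 4.99 in mutant and 5.44 ± 7.69 in control lenses (SD, n = 2), a ratio of 4.20. Without control replicate 2 the ratio was 2.10. The fitted log2 fold change of 4.43 (SE 2.13) rests on the value added to the 0, since it was 2.77 with a pseudocount of 1 and 6.10 with 0.01. It was 1.04 without control replicate 2 and 7.82 without control replicate 1.

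A 0 beside high counts was rare. Of the 15997 genes tested, 1526 had 0 reads in at least 1 library, and *S100a3* was the only one of them with more than 100 reads in another library. The next was *Gm14419*, with at most 32 reads. In FPKM, 2 of the tested genes (0.0125%) were at 0 in a library and at 10 or more in another, *S100a3* and *Mir186*, a short miRNA gene.

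**Figure D3:**
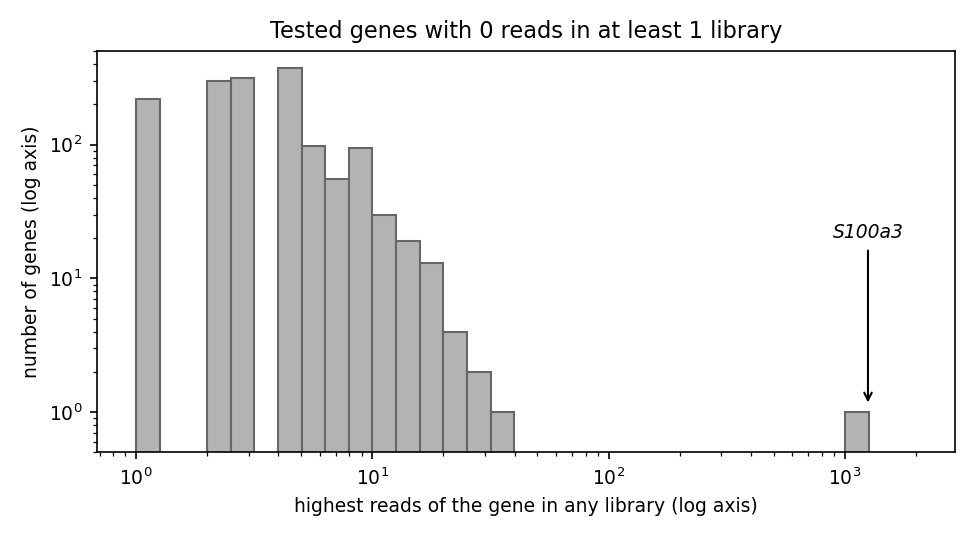
Highest number of reads in any library (log axis) for the 1526 tested genes that had 0 reads in at least 1 of the 4 libraries, as a histogram with the number of genes on a log axis. *S100a3*, with 1255 reads, stands apart from the others, which reach 32.

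*S100a3* lies on the same strand of chromosome 3 as *S100a4*, directly upstream of it, with a gap of 1068 bases between the genes. This matters for reading its values, because the cre of this model is driven by the *S100a4* promoter. The table holds no row for cre, and values per gene hold no sequence, so reads of the endogenous *S100a3* locus and reads of any stretch of this region in the transgene cannot be told apart. *S100a3* also overlaps *S100a2* by 6873 bases and *Gm42674* by 799 bases on the same strand, and both of these are listed at 0 in all 4 libraries. Of its 31-base words, 3.12% occur in other genes. RefSeq gives *S100a3* 4 starts, and the one printed here is shown because it alone of the 4 holds TATAAA (capitals), 52 bases before the start, on the + strand of GRCm38.
S100a3, chr3:90588313-90588562: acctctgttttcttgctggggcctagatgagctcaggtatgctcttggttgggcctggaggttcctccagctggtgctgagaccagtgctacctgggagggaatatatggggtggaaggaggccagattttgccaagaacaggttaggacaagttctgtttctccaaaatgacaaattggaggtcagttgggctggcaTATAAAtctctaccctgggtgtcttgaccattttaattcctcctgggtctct

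*S100a4*, the gene whose promoter drives the cre, encodes a protein that binds non-muscle myosin and is linked to cell motility. It was listed at a low level in these lenses, with 40 and 50 reads in mutant replicates 1 and 2 and 33 and 13 reads in control replicates 1 and 2. The 95% Poisson intervals of these reads were 28.6 to 54.5, 37.1 to 65.9, 22.7 to 46.3 and 6.92 to 22.2, and cover counting error only. In FPKM they were 3.84 and 4.37 against 2.91 and 1.21. Both mutant libraries were above both control libraries, and control replicate 2 was the lowest, as it was for *S100a3*. The intervals of control replicate 1 and of both mutant libraries overlapped. The means were 4.11 ± 0.375 and 2.06 ± 1.20 (SD, n = 2), a ratio of 2.0 and a log2 fold change of 1.08 (SE 0.40). Without control replicate 2 the ratio was 1.41 and the log2 fold change 0.48, and without control replicate 1 they were 3.40 and 1.68. *S100a6* was 40.01 and 26.0 times as high as *S100a4* in the mutant libraries and 43.2 and 99.5 times in the control libraries. Mutant replicate 1 and control replicate 1 were close in this ratio, and control replicate 2, with 13 reads of *S100a4*, stood apart. Single genes did not overlap in 36.6% of cases, and no test was made of this ratio.

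The promoter of *S100a4* is printed because it is the element named as the driver of the cre, although the extent of the fragment in the transgene is not given in the sources used here. It is the + strand of GRCm38 before the RefSeq start, and its TATAAA, 31 bases before the start, is in capitals.
S100a4, chr3:90603520-90603769: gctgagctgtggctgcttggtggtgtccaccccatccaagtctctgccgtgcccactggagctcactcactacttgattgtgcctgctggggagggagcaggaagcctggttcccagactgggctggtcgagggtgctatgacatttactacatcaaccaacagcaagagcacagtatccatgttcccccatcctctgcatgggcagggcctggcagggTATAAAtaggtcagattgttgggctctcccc
TATAAA occurred in 13.6% of all promoter windows. Of the 9 members, 8 matched the RefSeq promoter table, with 12 starts in all, and TATAAA was found at 2 of these starts, TGANTCA at 2 and CCGCCC at 3. *S100a10* had no entry there.

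The counts of *S100a4*, and with them its low level, are uncertain because of an overlap in the annotation. Of its 31-base words, 49.2% also occur in *Gm42674*, a gene model on the same strand that overlaps it by 2115 bases and is listed at 0 in every library. A like overlap is found at *Lim2*, a major membrane protein gene of lens fibres, which is listed at 0 in all 4 libraries and lies within *Gm52993* over 5904 of its 5909 bases. A value of 0 for an overlapped gene is therefore not read here as absence, and how reads in both *S100a4* and *Gm42674* were counted is not given in the sources used here.

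**Figure D4:**
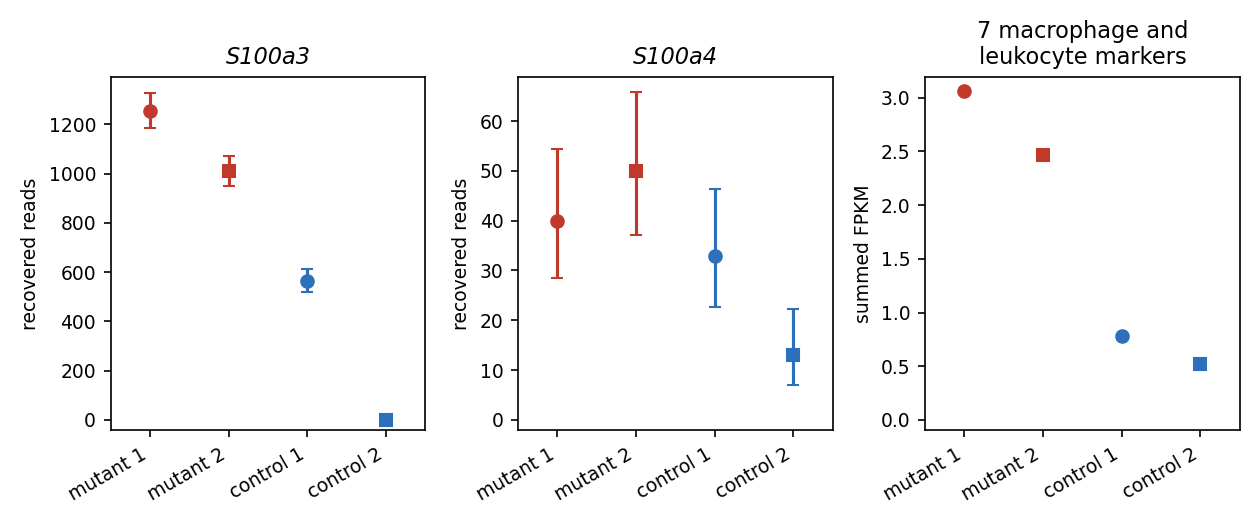
Recovered reads of *S100a3* and *S100a4* and the summed FPKM of 7 macrophage and leukocyte markers in each library (mutant red, control blue); bars are 95% Poisson intervals of the reads. *S100a3* falls from 1255 reads to 0 and *S100a4* has its lowest value, 13 reads, in the same library, and the markers are between 2.47 and 3.07 FPKM in the mutant against between 0.525 and 0.780 in the control pools.

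Markers of other cell types were checked because S100 genes are strong in several of them, and in whole lenses fewer cells of a type and less RNA per cell cannot be told apart. Macrophage and leukocyte markers were, like *S100a4*, higher in both mutant libraries than in both control libraries, although *S100a4* was higher in mutant replicate 2 and the markers in mutant replicate 1. Their summed level over 7 genes was 2.47 to 3.07 FPKM in mutant and 0.525 to 0.780 in control lenses. All 4 above the minimum level were higher in mutant lenses at an unadjusted p under 0.05 in limma's test, beside 3.39% of all genes. Of these, *Tyrobp* and *C1qb* averaged 0.0407 and 0.0722 FPKM in control lenses, under the minimum of 0.1. They passed it only through the mutant libraries, so the filter favoured this direction and nothing is read from the count. In voom, *Tyrobp* was under an unadjusted 0.05 and *C1qa*, *Cd68* and *C1qb* were not. None had an adjusted p under 0.05 in either test (voom adjusted p of 0.331 for *Tyrobp* and 0.691 to 0.721 for the others). *C1qa*, a complement gene of macrophages, had 19 and 13 reads against 9 and 5, a log2 fold change of 1.04 (SE 0.34, limma adjusted p = 0.761). *Tyrobp*, a signalling adaptor of myeloid cells, had 16 and 9 reads against 0 and 1. *Cd68* had 6 and 16 reads against 4 and 2, and *C1qb* 6 and 8 against 2 and 1. Their part in the *S100a4* values was not tested. Of the 3 markers below the minimum level, *Csf1r*, the receptor that macrophages depend on, had 10 and 11 reads against 8 and 5, and *Adgre1* and *Ptprc* had at most 2 reads in any library. Of 5 neutrophil markers, 4 were listed at 0, and the neutrophil S100 genes *S100a8* and *S100a9* were listed at 0 as well. Among 7 fibroblast and pericyte markers, the summed level was 19.2 to 20.4 FPKM in mutant and 20.4 to 21.02 in control lenses, and *Lum* was listed at 0. Most of this sum was *Acta2*, at a mean of 11.8 in mutant and 10.5 in control lenses, and *Pdgfra*, at 4.64 and 5.59. The matrix genes *Col3a1* (0.104 and 0.0919) and *Dcn* (0.0175 and 0) added little, so the sum says little of fibroblasts. Within that list *Col1a1* had 28 and 40 reads in mutant and 6 and 9 in control lenses (limma adjusted p = 0.784), and *Rgs5*, a pericyte gene, was at 2.95 ± 0.678 against 4.45 ± 0.218 FPKM (limma adjusted p = 0.736).

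For the tissue label, crystallin genes took between 58.6% and 62.9% of the reads, and 8 of 9 lens fibre markers were tested, *Lim2* being the one listed at 0. The 8 lens epithelium markers summed to 456 and 533 FPKM in mutant replicates 1 and 2 and to 571 and 534 in control replicates 1 and 2. Mutant replicate 1 thus had the lowest sum of these markers and the highest levels of *S100a6*, *S100a11* and *S100a10*. The largest part of the sum was *Col4a1*, at 183 and 233 FPKM in the mutant against 289 and 242 in the control pools. *Cdkn1c* was highest in mutant replicate 1, at 134 FPKM, and *Pax6* was not lowest there, whereas the other markers of this list were. Pigment cell, corneal, endothelial and retinal marker lists each summed to at most 2.78 FPKM in any library. Red blood cell markers summed to 17.2 to 25.2 FPKM in mutant and 21.6 to 34.9 in control lenses.

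*S100a16*, a broadly expressed member, was the one gene whose control libraries were both above both mutant libraries. It had 3.71 and 3.44 FPKM (107 and 109 reads) in the mutant against 4.52 and 4.19 (142 and 125 reads) in the control pools. The log2 fold change was -0.28 (SE 0.12), and on leaving out 1 library it lay between -0.33 and -0.22. *S100a1*, known from heart muscle, where it acts on the ryanodine receptor, had 3.23 and 2.94 FPKM against 2.07 and 2.89. Mutant replicate 2 and control replicate 2 differed by 3 reads, 40 against 37. Its log2 fold change was 0.32 (SE 0.19), and 0.09 without control replicate 1. *S100a13*, whose product takes part in the release of FGF1, starts 42 bases from *S100a1* on the opposite strand, and the promoter windows of the pair share 204 bases. It rested on 3 and 7 reads in the mutant against 10 and 5 in the control pools, with a log2 fold change of -0.48 (SE 0.43), and the groups overlapped. *S100a1* was above *S100a13* in every library. *S100b*, a gene of astrocytes and Schwann cells, had 2 and 1 reads in the mutant against 6 and 0 in the control pools. It overlaps *Dip2a* by 1731 bases on the opposite strand, and whether reads were counted by strand is not given in the sources used here, so its few reads cannot be told from reads of *Dip2a*. Glial markers summed to 3.74 to 4.46 FPKM in mutant and 3.94 to 4.73 in control lenses, and *Sox10* was listed at 0.

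**Figure D5:**
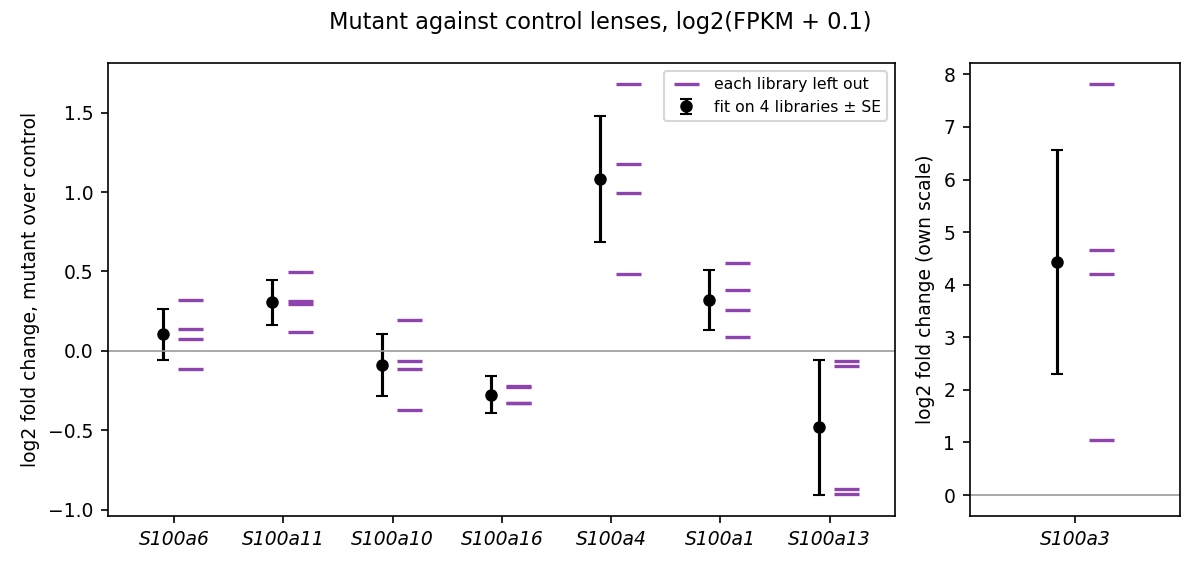
Log2 fold change of 8 S100 genes, mutant over control, with its SE (black) and the values on leaving out 1 library (purple dashes); *S100a3* has a scale of its own. On leaving out 1 library, *S100a6* lies between -0.11 and 0.32 and *S100a10* between -0.37 and 0.19; the sign of genes whose groups do not overlap cannot turn.

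Across the 8 genes in the fit, the median log2 fold change was 0.21, with 5 values above 0 and 3 below, beside a median of 0.0041 over all 15997 genes. Both mutant libraries were above both control libraries for 4 of the 9, *S100a3*, *S100a4*, *S100a11* and *S100a1*, beside 18.2% of all genes tested. They were below for 1, *S100a16*, beside 18.3%. The 9 genes were chosen with this comparison known, so nothing is read from these counts and no call is made on them. Over all genes, limma's test passed 0.0375% at an adjusted p under 0.05 and 6.31% at an unadjusted one (3.39% higher and 2.92% lower in mutant lenses), and voom passed 0.0875% and 7.43%. Groups did not overlap for 36.6% of all genes in either direction.

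*Xist*, which is expressed in females, divided the libraries across the groups: mutant replicate 1 and control replicate 2 were low for it (7.62 and 5.56 FPKM) and mutant replicate 2 and control replicate 1 high (13.1 and 15.6 FPKM). Within the low pair the log2 ratio of mutant to control was 1.59 for *S100a4*, 0.50 for *S100a11* and -0.17 for *S100a16*. Within the high pair it was 0.57, 0.11 and -0.38 for the same genes, and for these genes the sign was fixed, since their groups do not overlap. *S100a6* was 0.35 in the low and -0.14 in the high pair, *S100a10* was 0.17 and -0.35, and *S100a13* was -0.52 and -0.45. *S100b*, at 0 to 6 reads, had the opposite sign in the 2 pairs.

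The S100 family has further genes in the table, and these were listed at or near 0. Of 9 S100 genes outside the list, 7 were listed at 0 in all 4 libraries (*S100a2*, *S100a5*, *S100a7l2*, *S100a8*, *S100a9*, *S100a14* and *S100z*). The 0 of *S100a2*, which overlaps *S100a3* on the same strand by 6873 bases, is not read as absence. *S100g*, which encodes the calcium carrier calbindin-D9k of the gut, had 3 reads in control replicate 2 and none elsewhere, and lies wholly within *Ctps2* on the opposite strand. *S100a7a*, a gene of inflamed skin, had 5 and 2 reads in the mutant against 4 and 5 in the control pools, and as the 1 gene of the 9 that was tested it did not pass (log2 fold change -0.24, SE 0.50, limma adjusted p = 0.931). Of 7 S100-fused genes, which encode large proteins of the skin surface, 6 were listed at 0 and *Tchh* had 2 reads in mutant replicate 2.

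Genes of very unequal level lie side by side on the chromosome. Of the 9 listed genes, 8 lie on chromosome 3 of mm39, 6 of them between 90418341 and 90531488, a stretch of 113 kb, and *S100a11* and *S100a10* between 93427795 and 93471950. All but *S100a1* are on the + strand, and *S100b* is on chromosome 10 (76089687 to 76096993, + strand). Within the 113 kb, *S100a6* (90520189 to 90531488) at 128 FPKM stands 1101 bases after *S100a5*, listed at 0, and *S100a4* (90511078 to 90513352) at 3.08 FPKM lies between *S100a3* (90491966 to 90510009) and *S100a5*. *S100a14*, listed at 0, lies between *S100a13* and *S100a16*.

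Binding partners of S100 proteins showed no change that passed the test. Of 12 annexin genes, 9 were tested and none had an adjusted or unadjusted p under 0.05 in limma's test or in voom. *Anxa1*, the most abundant, had 58.1 and 57.1 FPKM in the mutant against 51.2 and 52.3 in the control pools, so that the groups did not overlap, with a log2 fold change of 0.15 (SE 0.08, limma adjusted p = 0.811). *Anxa6* was at 11.7 ± 0.245 against 12.5 ± 0.459 FPKM (SD, n = 2, limma adjusted p = 0.836). The median log2 fold change of the 9 annexins was -0.07, with 4 above 0 and 5 below.

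Of 25 other partner genes, 19 were tested and none passed an adjusted p of 0.05 with limma or voom. In limma's test 2 had an unadjusted p under 0.05, beside 6.31% of all genes, and in voom 3, beside 7.43%. Both of those in limma's test were lower in mutant lenses. *Ahnak*, a giant scaffold protein that docks on the complex of S100A10 and annexin A2, had 3.07 and 3.29 FPKM against 4.34 and 4.24, from 1090 to 1682 reads. Its log2 fold change was -0.42 (SE 0.11, limma adjusted p = 0.687), and both mutant libraries were below both control libraries. *Myh9*, the non-muscle myosin heavy chain that S100A4 binds, had 2.68 and 3.35 FPKM against 4.26 and 3.79, a log2 fold change of -0.41 (SE 0.15, limma adjusted p = 0.787). The most abundant partners, *Tubb5* at 93.1 ± 2.97 against 92.0 ± 4.58 FPKM, *Ezr* at 58.1 ± 8.70 against 62.3 ± 0.345 and *Cacybp* at 23.7 ± 1.08 against 21.4 ± 1.65, did not pass (limma adjusted p of 0.979, 0.860 and 0.811). The median over the 19 was 0.02.

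Other EF-hand genes gave a reference for calcium-binding proteins at large. Of 32 listed, 26 were tested and none passed an adjusted p of 0.05 with limma or voom, and 1 had an unadjusted p under 0.05 in limma's test and 2 in voom, shares near those of all genes (6.31% and 7.43%). The 1 gene in limma's test was *Calm2*, a calmodulin gene, with 25.6 and 24.2 FPKM in the mutant against 21.5 and 19.8 in the control pools, a log2 fold change of 0.27 (SE 0.09, limma adjusted p = 0.772). *S100a6* stood above *Calm3*, another calmodulin gene and the most abundant on this list at 69.4 FPKM, in every library, and so did *S100a11*. The log2 fold change of *Calm3* was -0.09 (limma adjusted p = 0.843). *Capns1*, the small subunit of the calpains, whose proteases cleave crystallins in cataract, was at 61.3 ± 1.80 against 53.0 ± 2.14 FPKM (limma adjusted p = 0.805).

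With 4 libraries no correlation across samples can be given. By distance between centred log2 profiles, the genes nearest to *S100a4* among 1669 with a mean of at least 10 FPKM were the miRNA gene ENSMUSG00002076173 (0.302), the processed pseudogene *Gm10146* (0.621) and *Mir5125* (0.752), where the profile of *S100a4* itself has a length of 1.38 from its mean.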

How the data were processed

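Poly(A) RNA of pooled lenses was sequenced in 4 libraries. The strand setting of the counting is not given in the sources used here. The authors aligned reads with HISAT2 2.0.5, counted them per gene with featureCounts 1.5.0-p3 and deposited FPKM of 56748 genes with gene length and position. The submitters' processing notes name mm39, and positions are those of the deposited table. Sequences are from RefSeq on GRCm38 and were not converted. Per-sample columns not used number 0. No count was used as deposited: multiplied by gene length, 100% of FPKM above 0 were whole multiples of 1 step (tolerance 0.001), which gave 18561682 to 18878768 reads per library.

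The test covered the 15997 genes whose FPKM averaged 0.1 or more. It used log2(FPKM + 0.1) and limma 3.58.1 (lmFit, eBayes with a trend, two-sided, Benjamini-Hochberg) in R 4.3.3, and with voom on recovered reads as an alternative, since the count model of the study needs counts. On simulated reads of 15524 genes, with 190 changed by a log2 of 2, limma called 57.4% of the changed genes (88.8% of those with a mean FPKM of at least 1) and 41 unchanged genes, and voom 80% (98.0%) and 5. Other scripts used Python 3.11.15 with pandas 2.3.3, numpy 2.4.6 and, for plots, matplotlib 3.10.9. Words of 31 bases were compared over the GENCODE M21 transcripts.

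The members and lists were chosen with earlier results of these data known. Named genes are all members, all other S100 genes, genes next to members on the chromosome, the 3 genes nearest *S100a4* in profile, and from the other lists each gene with an unadjusted p under 0.05, the 3 most abundant, *Anxa1* and *Anxa2*. Not every gene under this rule is reported here. *Lim2*, *Gm42674*, *Gm14419*, *Dip2a*, *Ctps2*, *Gm52993*, the *S100a11* pseudogenes and the marker genes named were picked after their values were seen. Protein sequences were not used here.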

Additional observations from a re-analysis of the deposited data

How the results depend on the processing

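With 2 libraries per group and 3 to 50 reads per library for *S100a4*, *S100a1* and *S100a13*, differences of these genes are limited by counting error and by single libraries. The number of genes called at an adjusted p under 0.05 was 6, and it was 2 with a pseudocount of 1, with a pseudocount of 0.01, with a mean FPKM of at least 1 and without a trend. It was 1 without a filter and 1 with a covariate for the *Xist* level, and 14 with voom. On leaving out any 1 library it was 0 in every case, from 0 to 0, with between 747 and 1425 genes at an unadjusted p under 0.05. In none of these settings was a gene of the other S100, S100-fused, annexin, partner or EF-hand lists called. The groups share replicate numbers 1 and 2, but the deviations of libraries with the same number correlated at -0.0051 over genes, so the number was not taken as a pairing, and the replicate block gave 3 called genes. The cause of these moves was not tested.

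Log2 fold changes of the 8 members in the fit moved by less than the SD between replicates, and kept their sign, in the settings that used all 4 libraries. With 2 libraries per group, leaving out 1 cannot move them by more than that SD, so these values say nothing of stability: they were -0.11 to 0.32 for *S100a6*, 0.12 to 0.49 for *S100a11*, -0.37 to 0.19 for *S100a10*, 1.04 to 7.82 for *S100a3*, -0.33 to -0.22 for *S100a16*, 0.48 to 1.68 for *S100a4*, 0.09 to 0.55 for *S100a1* and -0.90 to -0.06 for *S100a13*. In a check chosen after seeing the data, the number of members whose groups did not overlap was 4 to 6 higher and 1 to 3 lower with 1 library left out, beside 32.0% to 37.1% and 32.9% to 34.2% of all genes. Scaled without crystallins, the median of all genes was -0.04, and scaled to recovered reads, an alternative added after seeing the data, it was -0.02. Both gave 77.3 FPKM for the *S100a11* level in control lenses in place of 76.0, which is more than its SD of 0.710. Which members had groups that do not overlap was the same when scaled to recovered reads. *S100b* was below the filter of the test and has no fold change with it.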
